A study of Mus musculus with 4 samples.

Results

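Untreated mouse back skin was compared with untreated mouse tail skin, using the 2 control samples of a series of 4. The samples were chosen by their labels, which name the body site and give no treatment. Each group was represented by 1 one-colour Agilent array. The study design gives 3 animals per group and does not state whether their RNA was pooled, so no difference has a replicate check and no test was made. The other 2 samples, from treated tail and treated back skin, were used as a separate pair of the same sites. They had received a cream of methyl aminolevulinate, a precursor of a light-absorbing porphyrin, for 2.5 h in darkness and were then lit with red light (636 nm). The tail dose was 10 J/cm2, the back dose was 2.5 J/cm2, and expression was measured 48 h later. Back skin of treated animals was shaved, and whether the control animals were shaved is not stated. The sample labels speak of tail skin, while the extraction protocol speaks of epidermis of the tail, so the layers taken at each site may differ. Strain, age, sex and coat colour are not given in the sources used here. No genotype or transgene is named for any group.

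Mouse back skin is densely haired and its follicles cycle in a synchronous way, while tail skin bears sparse follicles among scale-forming epidermis and holds pigment cells within the epidermis. A growing follicle builds a hair shaft from hair-type keratins cross-linked by keratin-associated proteins, encased by an inner root sheath, and these genes are silent in a resting follicle. Hox genes, whose order within each cluster follows the body axis, keep a record of body position in adult skin cells, with the higher-numbered members used at the posterior end.

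Of the 45 gene lists examined, the hair-shaft genes had the largest medians in size, so promoters of 4 of them are shown first. They are the keratin-associated proteins and the hair-type keratins with the lowest back-minus-tail differences among those with an entry in the RefSeq promoter table, build GRCm38.p6. Each is the 250 bases before the start site on the gene's strand, which is the minus strand for all 4. Krtap5-2 lies at chr7:142176006-142176255, Krtap1-5 at chr11:99581017-99581266, Krt82 at chr15:101550660-101550909 and Krt31 at chr11:100050552-100050801. Capitals mark TATAAA, and CTTTGA or CTTTGT (the core letters bound by the LEF and TCF factors of Wnt signalling), each on either strand, with overlapping matches merged.
Krtap5-2: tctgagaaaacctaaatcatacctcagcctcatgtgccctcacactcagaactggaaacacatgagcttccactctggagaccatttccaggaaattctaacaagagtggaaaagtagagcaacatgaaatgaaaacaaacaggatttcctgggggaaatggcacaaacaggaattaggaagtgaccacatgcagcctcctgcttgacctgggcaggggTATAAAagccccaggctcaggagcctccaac
Krtap1-5: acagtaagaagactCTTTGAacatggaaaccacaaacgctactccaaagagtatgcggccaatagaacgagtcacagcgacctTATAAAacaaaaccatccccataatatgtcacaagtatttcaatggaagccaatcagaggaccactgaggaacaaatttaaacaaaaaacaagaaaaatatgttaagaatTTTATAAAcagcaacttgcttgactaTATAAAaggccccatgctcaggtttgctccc
Krt82: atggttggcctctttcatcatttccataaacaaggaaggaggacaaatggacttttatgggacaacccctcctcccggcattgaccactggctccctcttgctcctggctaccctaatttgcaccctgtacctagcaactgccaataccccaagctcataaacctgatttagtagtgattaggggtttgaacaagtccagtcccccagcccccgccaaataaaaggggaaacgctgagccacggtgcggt
Krt31: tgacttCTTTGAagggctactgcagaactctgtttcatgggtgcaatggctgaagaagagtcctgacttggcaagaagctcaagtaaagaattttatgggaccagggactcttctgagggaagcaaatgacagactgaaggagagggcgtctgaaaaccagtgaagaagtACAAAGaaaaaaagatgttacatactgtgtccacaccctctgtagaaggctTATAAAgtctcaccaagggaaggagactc
A sense TATAAA began 31 bases before the start of Krtap5-2, 31 bases before that of Krtap1-5 and 29 bases before that of Krt31. The Krt82 window held none of these letters, which says only that they are not in this window. Of 29 promoters of hair-type keratins and keratin-associated proteins in the table, 21 (72.4%) held TATAAA on either strand, against 12.4% of 32851 promoters of the same length. A sense TATAAA starting 20 to 40 bases before the start site was present in 14 of the 29 (48.3%) and in 1.87% of all promoters. The LEF and TCF core was present in 18 of the 29 (62.1%) and in 27.6% of all. These matches are descriptions of sequence, and many of these genes are neighbours in clusters and share ancestry.

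All values below are relative signals, meaning the processed signal of a gene's brightest probe divided by the 75th percentile of that array, and differences are log2 of back over tail, so that a negative value is lower in the back. A gene counted as measured when neither array had it saturated and both had it well above background. A gene dim or saturated on 1 of them gave a bound, written as "at least". Where its values pointed against the bound, it was given no value. The 75th percentile was 7261 on the untreated tail array and 1860 on the untreated back array, and 909 and 1204 on the treated tail and back arrays. Saturated genes numbered 1668 on the untreated tail array and 666 on the untreated back array. Spots therefore saturated at a lower relative signal in the untreated tail than in the untreated back, and bright genes of the tail have only lower limits. By decile of level, the median difference was 1.76 in the dimmest decile, -0.33 in the sixth and 1.68 in the brightest, where 83.9% of genes were saturated in the tail and 38.9% in the back. All 4 arrays lay on 1 slide, and array position, brightness and group cannot be told apart.

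**Figure D1:**
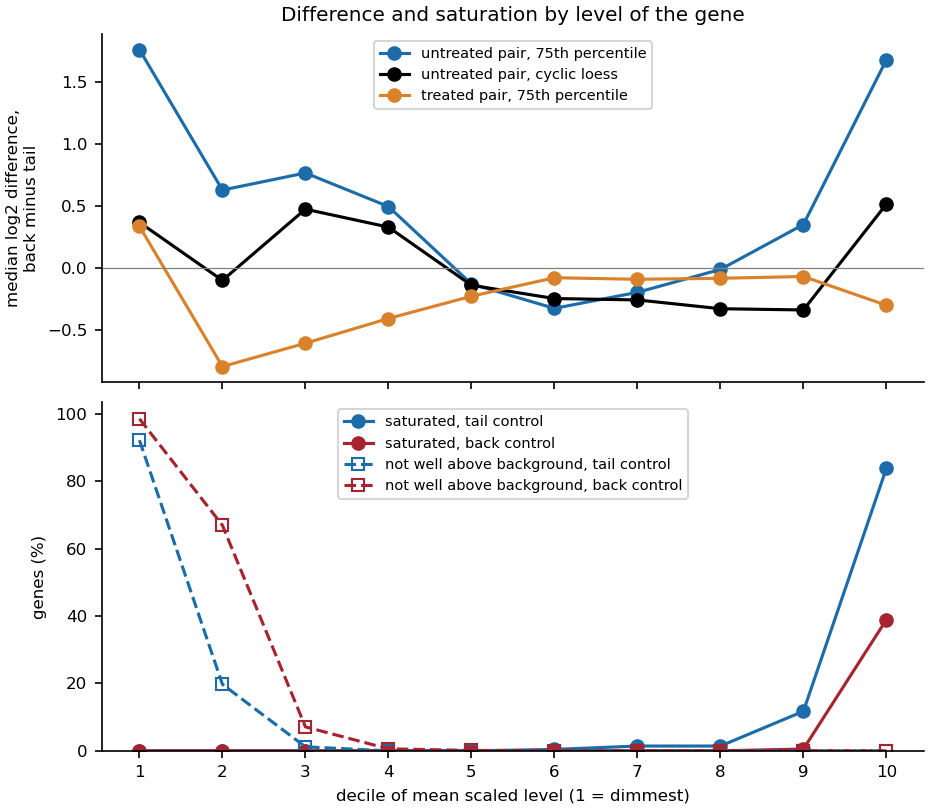
Upper panel, median log2 difference of back minus tail (vertical axis) for genes in deciles of mean scaled level (horizontal axis, 1 is dimmest), without a filter, for the untreated pair under 75th-percentile scaling and under cyclic loess and for the treated pair. Lower panel, percent of genes saturated or not well above background on each untreated array. The untreated pair is highest in the dimmest and the brightest decile, at 1.76 and 1.68, and cyclic loess lowers these medians to 0.37 and 0.51.

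Of 16862 genes, 12798 had a value in the untreated pair. At least 2-fold higher in the back were 3507 genes (27.4% of those with a value) and at least 2-fold lower were 2206 (17.2%). The median over all genes was 0.19, and 61.4% of the genes past 2-fold were higher in the back. That share was 47.7% under cyclic loess, 46.9% under quantile normalization and 16.4% when the arrays were scaled by spiked-in control RNA. The counts of lists below are read against 27.4% and 17.2%, or against 19.4% higher and 21.2% lower under cyclic loess. In the treated pair, 15.9% of genes were higher and 20.5% lower.

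Hair-shaft genes were far lower in the back. All 26 keratin-associated proteins with a value, of 27 on the array, were at least 2-fold lower, with a median of -6.02. Of these values, 21 were bounds because the tail array was saturated. A gene saturated only in the tail was given a value only when lower in the back, so those 21 could not have counted as higher. The 5 measured members were all lower too, with a median of -7.10. Krtap5-2 had a relative signal of 8.19 in untreated tail and 25.3 in treated tail, against 0.0137 in untreated back and 0.00307 in treated back. It was 598-fold lower in the untreated back, a log2 difference of -9.22 that was -7.40 with normexp background correction. Krtap19-5 stood at 4.40 and 14.1 on the tail arrays and at 0.0131 and 0.00306 on the back arrays, a 336-fold difference in the untreated pair. Both genes were not well above background in treated back. Neither gene's back values approached a tail value. The member nearest to equality, Krtap19-1, was at least 2.41-fold lower. Krtap3-2 had no value, since its tail spot was saturated at 8.58 and its back signal was 11.2. Every one of the 27 was still well above background in the untreated back, where none was saturated. Members of this family share sequence, and their probes may read one another.

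Of 8 hair-type keratins on the array, 7 were lower in the back and all had bounds, with a median of -6.44. A bound from a saturated tail or a dim back was kept only when lower, so none of the 8 could have counted as higher. Krt82, a keratin of the hair cuticle, was at least 251-fold lower, with relative signals of 2.68 and 11.1 in untreated and treated tail against 0.00828 and 0.00332 in untreated and treated back, neither well above background. Krt86, a keratin of the hair cortex, was at least 192-fold lower, with 8.94 in the saturated tail and 0.0466 in the back. Krt84 differed from the other 7. It was at least 1.12-fold lower, at 8.66 in the saturated tail and 7.69 in the back, and it fell outside the 2-fold limit in the treated pair only, where it was at least 236-fold lower. Krt84 is known from the tongue as well as from hair.

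Of 8 inner root sheath genes with a value, 6 were lower and 1 higher, with a median of -4.63. Of these values, 6 were bounds from a saturated tail or a dim back, which could only be lower. The 2 measured members, Padi3 and Padi1, went opposite ways in the untreated pair. Krt26 was at least 235-fold lower and Krt25 at least 55.9-fold lower. Krt71, another sheath keratin, was at least 18.6-fold lower. Padi3, an enzyme that converts arginine to citrulline in sheath proteins, was measured on all arrays at 2.35 and 10.6 in the untreated and treated tail and 0.0272 and 0.0193 in the untreated and treated back. Padi1, its relative in the epidermis, was 2.70-fold higher in the untreated back and 2.62-fold lower in the treated back.

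Transcription factors and signals of the growing follicle were lower in the back in 12 of 19 members and higher in 3, with a median of -1.41. Bambi, a decoy receptor of BMP signalling, was 28.4-fold lower, at 6.34 in tail and 0.223 in back. Foxn1, the factor mutated in nude mice, was 7.05-fold lower, at 1.55 in tail and 0.220 in back. Lef1, a nuclear partner of beta-catenin in the hair matrix, was 8.66-fold lower, at 0.116 in tail and 0.0134 in back. Hoxc13, which drives hair keratin genes and is counted with the Hox genes, was 19.1-fold lower, at 1.64 in tail and 0.0860 in back. The adhesion protein of the shaft Dsg4 was at least 9.09-fold lower. In the treated pair 9 of the 12 were lower again. Ovol1, a factor of differentiating epidermis, went the other way and was at least 4.82-fold higher in the back.

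The stem-cell, dermal papilla and sebocyte lists did not show this difference as a group. Of 17 stem-cell markers with a value, 5 were higher and 4 lower. Their median of 0.45 turned to -0.13 under cyclic loess and was also negative under spike-in scaling. Sox9, a factor of the bulge and outer root sheath, was 4.86-fold higher in the untreated back and 1.03-fold lower in the treated back. Tcf7l1 was 2.65-fold lower and Lgr5 2.16-fold higher. Of 12 markers of the dermal papilla and sheath with a value, 4 were higher and 4 lower, while 7 others, among them Corin and Rspo3, were dim on both arrays. Of 16 genes of sebocytes and lipid synthesis, 3 were higher and 2 lower.

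**Figure D2:**
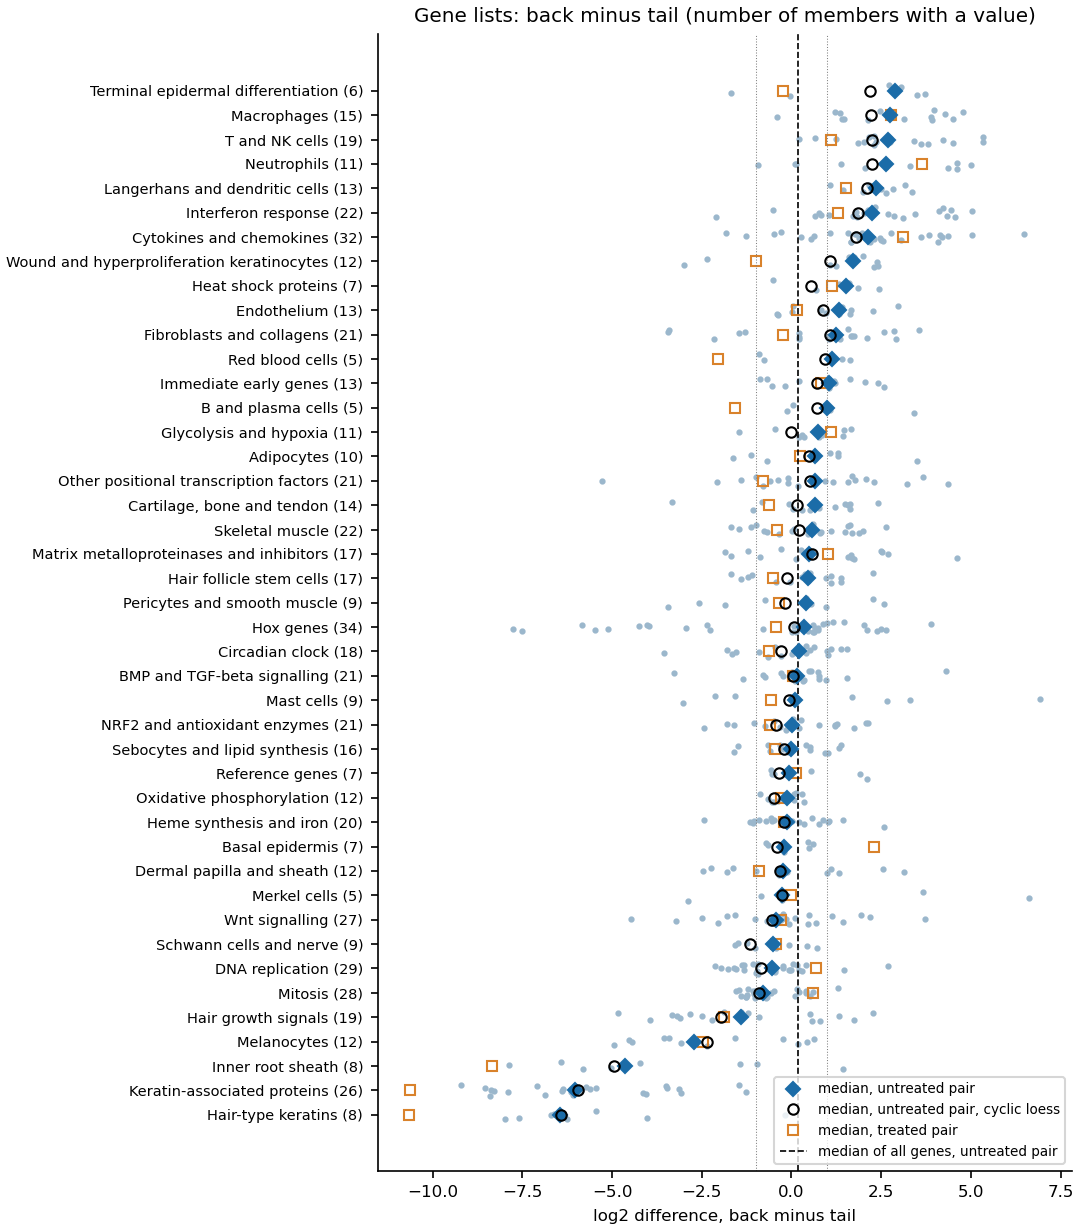
Log2 difference of back minus tail (horizontal axis) for gene lists (vertical axis, with the number of members that have a value in the untreated pair). Small points are members, with bounds drawn at their bound, diamonds are medians of the untreated pair, open circles the same under cyclic loess and open squares medians of the treated pair. Hair-type keratins and keratin-associated proteins lie near -6 and lower still in the treated pair. Untreated medians lie above 2 for Langerhans and dendritic cells, T and NK cells, macrophages and neutrophils. Those of mast cells (0.089) and of B and plasma cells (0.998) do not.

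Pigment-cell genes were lower in the back as well. Of 12 melanocyte genes with a value, 8 were lower and none was higher. The median was -2.71, and the same 8 were lower in the treated pair. Pmel, the fibril protein of the melanosome, stood at 2.06 and 2.64 in untreated and treated tail and at 0.0935 and 0.0795 in untreated and treated back, a difference of -4.46 in the untreated pair. Tyrp1, an enzyme of melanin synthesis, was 23.2-fold lower and Dct, another, 11.6-fold lower. The melanosome glycoprotein Gpnmb, which macrophages also make, was 31.0-fold lower. Oca2, a melanosome membrane protein, was at least 8.41-fold lower. Mitf, the lineage's main transcription factor, was 1.19-fold lower, and Mc1r, the receptor for melanocortin, was 1.56-fold higher, so both lay within 2-fold. In bulk samples such as these, fewer cells of a type and less RNA per cell cannot be told apart.

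The Hox genes differed in part by their place in the cluster. Of 36 on the array, 34 had a value, 8 were higher in the back and 11 lower. Among paralogues 9 to 13, which lie at the posterior end of each cluster, 9 of 15 were lower and 2 higher, with a median of -2.36. That median rests on 6 bounds of genes dim in the back, which could only be lower. The 9 measured members went both ways, with a median of 0.07. Among paralogues 1 to 8, 6 of 19 were higher and 2 lower. Their median was 0.66, smaller than the 1.06 by which spike-in scaling lowered every gene.

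The Hoxd cluster held the largest differences. Hoxd9 stood at 3.08 and 2.87 in untreated and treated tail and at 0.0143 and 0.00326 in untreated and treated back, and was 216-fold lower in the untreated pair. Its treated back signal was not well above background. Hoxd10 was at least 182-fold lower, at 1.94 in the tail and not well above background in the back, and Hoxd11 was at least 44.3-fold lower. Hoxd8 was 34.6-fold lower, at 8.52 in tail and 0.246 in back, and Hoxd4 16.3-fold lower, at 1.95 in tail and 0.120 in back. These were the 2 members of paralogues 1 to 8 that were lower. Hoxd3 was 1.99-fold higher, Hoxd12 1.17-fold higher and Hoxd13 4.09-fold higher. Hoxd13 had low signals on every array, between 0.0218 and 0.0891, and was 1.35-fold higher in the treated pair.

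In the Hoxa cluster the sign changed between Hoxa7 and Hoxa9. Hoxa5 stood at 0.157 and 0.174 in untreated and treated tail and at 0.876 and 0.871 in untreated and treated back, 5.59-fold higher in the untreated pair. Hoxa2 was 2.76-fold and Hoxa4 2.24-fold higher. Hoxa3 and Hoxa6 were higher by less, at 1.53-fold and 1.52-fold. Hoxa7 lay at 8.72 in tail and 9.54 in back, a difference of 0.13 that was -0.78 under cyclic loess. Hoxa9 was 7.64-fold lower, Hoxa10 at least 57.3-fold lower and Hoxa11 at least 15.6-fold lower. Hoxa13 was 14.9-fold higher on dim signals, 0.00389 in tail and 0.0579 in back, and was dim on both arrays of the treated pair.

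Of the Hoxc genes, Hoxc8 was 6.27-fold higher in the back, with 0.0180 and 0.0103 on the tail arrays and 0.113 and 0.0918 on the back arrays. Hoxc4 was 1.53-fold higher and Hoxc9 1.73-fold lower. Hoxc10 was at least 4.80-fold lower, Hoxc12 at least 5.12-fold lower and Hoxc13 19.1-fold lower. The Hoxb cluster differed least. Hoxb8 was 4.29-fold higher, and Hoxb2, Hoxb3, Hoxb4, Hoxb5, Hoxb6, Hoxb7, Hoxb9 and Hoxb13 all lay within 2-fold, from 0.03 to 0.89. Hoxb1 and Hoxd1 had no value. Between the pairs, 5 Hox genes were higher and 11 lower in both.

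**Figure D3:**
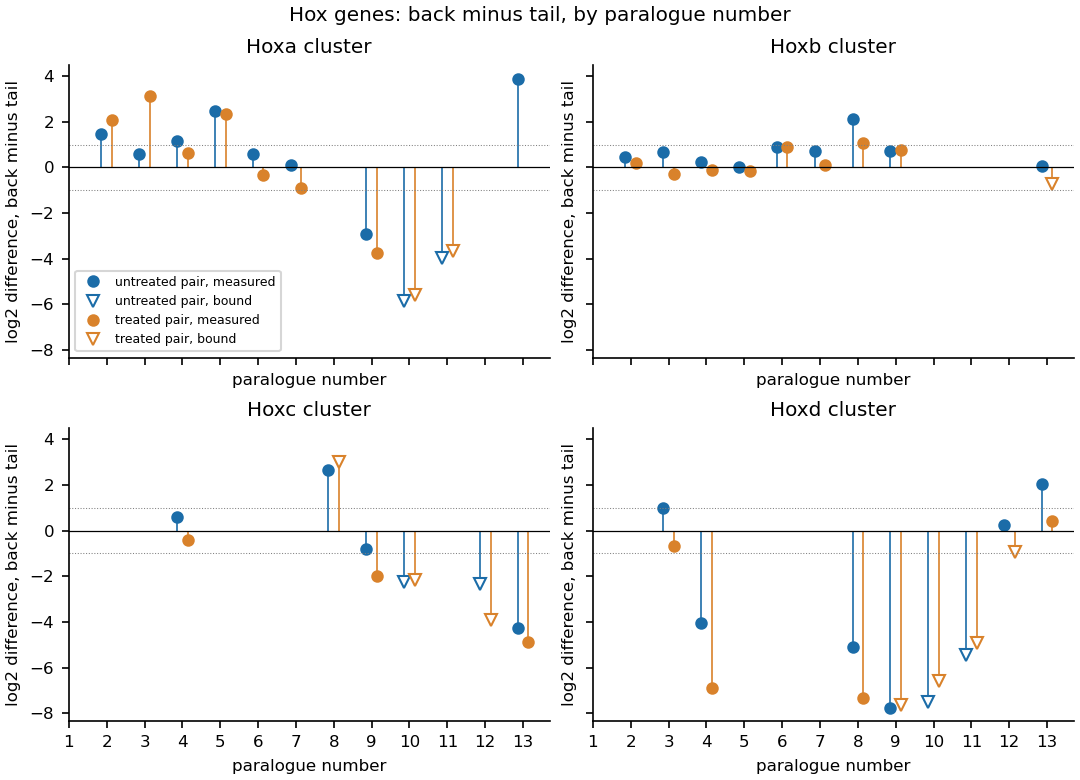
Log2 difference of back minus tail (vertical axis) for Hox genes by paralogue number (horizontal axis), 1 panel per cluster, for the untreated and the treated pair. Filled circles are measured and open triangles are bounds. Differences are below 0 for paralogues 9 to 11 of the Hoxa and Hoxd clusters and for 9 to 13 of the Hoxc cluster, and lie within 2-fold for the Hoxb genes other than Hoxb8.

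Other factors that mark body position were mixed, with 9 of 21 higher and 3 lower. Between the treated arrays the count was 1 higher and 7 lower among 21, at a median of -0.79, and 1 member was higher in both pairs. Tbx3, a T-box factor, was at least 38.7-fold lower in the untreated back and at least 37.5-fold lower in the treated back. Zic1, a factor of dorsal tissues, was at least 9.31-fold higher and at least 3.48-fold higher. Pitx1, a hindlimb factor, stood at 0.0339 in untreated tail, 0.694 in untreated back, 0.426 in treated tail and 0.125 in treated back. It was 20.4-fold higher in the untreated back and 3.41-fold lower in the treated back. Msx1 also changed sides, at 4.97-fold higher and 2.53-fold lower.

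Immune-cell genes were higher in the back. Of 13 Langerhans and dendritic cell genes with a value, all were at least 2-fold higher, with a median of 2.37. Cd207, the langerin that defines Langerhans cells, was 10.3-fold higher, at 0.333 in untreated tail, 3.42 in untreated back, 0.0571 in treated tail and 1.07 in treated back. Its back values exceeded both tail values. H2-Ab1, a chain of MHC class II, was 7.05-fold higher and the co-stimulatory ligand Cd86 8.97-fold higher. The chemokine receptor Ccr7 was 6.16-fold higher. In the treated pair 8 of the 13 were higher again, and under cyclic loess 11 members of this list were higher.

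T and NK cell genes were higher in 17 of 19 and lower in none, and the median was 2.69. The surface protein Cd7 was 18.5-fold higher, at 0.0201 in tail and 0.373 in back. The interleukin receptor chain Il2rb was 14.1-fold higher. Xcl1, a chemokine of activated lymphocytes, was at least 40.6-fold higher, and Klrk1, an NK receptor, at least 5.14-fold. In the treated pair 10 members of this list were higher and 3 lower, and Gzmc was 22.6-fold higher in the untreated back and 1.84-fold higher in the treated back.

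Macrophage genes were higher in 14 of 15 and lower in none, and the median was 2.74. Lyz2, the lysozyme of myeloid cells, stood at 0.0717 and 0.389 in untreated and treated tail and at 1.13 and 5.09 in untreated and treated back, 15.7-fold higher in the untreated pair. The complement gene C1qc was 19.4-fold higher and Timd4, a receptor for dying cells, 22.7-fold. Fcgr1, an antibody receptor, was at least 27.7-fold and Mrc1, the mannose receptor, at least 14.8-fold higher. In both pairs 11 members were higher. Mertk was the 1 member within 2-fold.

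Neutrophil-related genes were higher in 8 of 11 with a value, with a median of 2.64, and all 8 were higher in the treated pair. Clec4d and Clec4e, lectins of myeloid cells, were 32.2-fold and 24.3-fold higher, the latter on a dim tail signal of 0.00402. The granule genes that define the cell gave little signal, since Camp, Ngp and Mmp8 were not well above background on either untreated array, and Mpo was 1.09-fold higher. Mast cell genes were divided, with 4 higher and 3 lower. Mrgprb2, a receptor of connective-tissue mast cells, was 123-fold higher, at 0.00589 in tail and 0.722 in back, while the protease Mcpt4 was 4.40-fold lower and Mcpt1 at least 8.18-fold lower. Of 5 B and plasma cell genes, 2 were higher, and Cd79b had a difference of 3.42.

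Cytokine genes were higher in the back in 25 of 32 and lower in 2, with a median of 2.13. Tslp, an epithelial cytokine that acts on dendritic cells, stood at 0.183 and 0.125 in untreated and treated tail and at 16.3 and 33.6 in untreated and treated back, and was 89.0-fold higher in the untreated pair. Il1b was 20.7-fold higher, at 0.318 in tail and 6.59 in back, and Ccl4, a chemokine for lymphocytes and monocytes, 32.6-fold higher. Pf4, a chemokine of platelets and macrophages, was 18.5-fold higher. Cxcl14, an epidermal chemokine, was at least 3.57-fold lower. In both pairs 19 were higher and 2 lower.

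Interferon-response genes were higher in 17 of 22 and lower in 1, with a median of 2.24. Oasl2 was 32.7-fold higher, at 0.0106 in tail and 0.348 in back, and Oas1a 18.6-fold higher. The antiviral genes Ifit1 and Rtp4 were 23.4-fold and 20.4-fold higher, and Oas2 was at least 21.8-fold higher. The tail signal of Ifit1 was dim, at 0.00433. The 1 lower member was Bst2, a tether of virus particles, at 4.31-fold lower, named here after its value was seen. In the treated pair 12 members were higher. The antigen-presenting light chain B2m was at least 4.30-fold higher, a log2 difference of 2.10 that was 0.95 under cyclic loess.

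The brightness of the arrays moved with these lists. The tail array, where immune genes were lower, was the brighter one and gave more genes well above background (14953 against 13938). Its part in these differences was not tested. Under cyclic loess the medians were 2.12 for Langerhans and dendritic cells, 2.25 for T and NK cells, 2.22 for macrophages, 1.79 for cytokines and 1.86 for the interferon response. Under spike-in scaling, which lowered every gene by 1.06, they were 1.31, 1.63, 1.24, 1.05 and 1.18.

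Genes of the living epidermal layers were hard to compare because many were saturated. Of 13 basal genes, 7 had a value and none differed by 2-fold in the untreated pair. Their median was -0.22, and it was above 0 without a filter. Itga6, an integrin of the basal layer, was 1.62-fold lower and the cadherin Cdh3 1.57-fold lower. Basal genes of the treated pair had a median of 2.29, and 7 of 10 with a value were higher. Krt5 and Krt14 were saturated on both untreated arrays. Of 26 genes of terminal differentiation, 16 were saturated on both arrays and 6 had a value, of which 4 were higher and 1 lower. Flg2, a filaggrin relative of the cornified layer, was at least 13.3-fold higher, Sprr4 11.2-fold and the envelope protein Ivl 6.61-fold higher. Tgm3, a transglutaminase of hair and epidermis, was at least 3.22-fold lower. The treated arrays gave a value for 17 members, of which 3 were higher and 7 lower, at a median of -0.25.

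Genes known from wounded or hyperproliferative keratinocytes were higher in 10 of 12 and lower in 2, with a median of 1.71. Il1f6, an epidermal interleukin, was 5.33-fold higher, at 4.82 in tail and 25.6 in back, and in the treated pair was 8.24-fold lower. S100a8 was 5.25-fold and its partner S100a9 at least 4.93-fold higher, the latter a log2 difference of 2.30 that was 0.96 under cyclic loess. S100a7a was 8.01-fold lower and the protease inhibitor Serpinb3a 5.08-fold lower, and both were lower in the treated pair too. The treated pair had 2 members higher and 6 lower.

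Stromal genes went both ways. Of 21 fibroblast and collagen genes, 13 were higher in the back and 5 lower. The median was 1.23. Col3a1 and Col1a1, fibrillar collagens of the dermis, were 6.03-fold and 4.29-fold higher, the latter named after its value was seen. Col3a1 stood at 0.102 in tail and 0.614 in back. Twist2, a dermal transcription factor, was 11.7-fold higher on dim signals, 0.00336 in tail and 0.0392 in back. Pdgfra, a receptor that marks fibroblasts, was at least 7.32-fold higher. Dcn, the proteoglycan decorin, was 10.6-fold lower and the matrix protein Sparc at least 10.8-fold lower. In the treated pair 6 members were higher and 5 lower.

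Endothelial genes were higher in 7 of 13 and lower in none, and the median was 1.32. Flt1, a receptor for vascular growth factor, was 7.82-fold and the junction protein Cdh5 4.84-fold higher, the latter on dim signals of 0.00567 and 0.0275. Pecam1, a general marker of vessels, was 1.30-fold lower, and none of the 7 was higher in the treated pair. Of 22 skeletal muscle genes, 8 were higher and 3 lower. Myl1, a muscle light chain, was 6.19-fold higher on signals of 0.00429 and 0.0265. Myom2, a protein of the muscle M-band that was not in that list, was 46.7-fold lower, at 3.87 and 1.97 in untreated and treated tail and 0.0829 and 0.0192 in untreated and treated back. Of 14 genes of cartilage, bone and tendon, 6 were higher and 2 lower, and of 10 adipocyte genes 4 were higher and 2 lower. Of 9 Schwann cell and nerve genes, 4 were lower and none higher, with S100b, a glial protein, at 2.96-fold lower. The parts of differing tissue layers and of array brightness in these stromal differences were not tested.

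Cell-cycle genes leaned lower in the untreated back, though most lay within 2-fold. Of 28 mitosis genes, 11 were lower, 1 was higher and 16 lay within 2-fold. The median was -0.78, and no member was lower in the treated pair, where 10 were higher. Kif20a, a kinesin of cell division, was 2.92-fold lower, at 1.87 in tail and 0.640 in back. Ccna2, a cyclin, was 2.73-fold lower and the phosphatase Cdc25c 2.65-fold lower. Ttk, a spindle kinase, was 2.47-fold higher. Of 29 DNA replication genes, 9 were lower, 2 were higher and 18 lay within 2-fold. The median was -0.53, and 14 were lower under cyclic loess. On the treated arrays 11 were higher and none lower, at a median of 0.70. Rfc4, a clamp loader subunit, was 4.38-fold lower and E2f1, a factor that drives entry into DNA synthesis, 3.40-fold lower. Cdc6, which loads the replicative helicase, was 6.48-fold higher.

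Wnt and BMP genes held a few large differences among many small ones. Of 27 Wnt genes, 5 were higher and 7 lower. Nkd1, a feedback inhibitor of the pathway, stood at 1.57 and 5.82 in untreated and treated tail and at 0.0706 and 0.102 in untreated and treated back, 22.2-fold lower in the untreated pair. Wnt3a was 9.37-fold and Wnt4 5.64-fold lower, and the secreted inhibitor Sfrp4 was 13.1-fold higher. Wnt3a was 1.11-fold higher in the treated pair. Of 21 BMP and TGF-beta genes, 17 lay within 2-fold. Smad6, an inhibitor inside the cell, was 9.65-fold lower and Inhba, the activin subunit, 19.7-fold higher.

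Among the metabolic and stress lists, no member of 12 with a value for oxidative phosphorylation differed by 2-fold, while 3 were lower under cyclic loess. The other 18 of 30 had no value, 8 being saturated on both arrays and 10 pointing against the bound. Heat shock genes were higher in 5 of 7, with Hsph1, a large chaperone, 5.42-fold higher, but only 1 of them passed 2-fold under cyclic loess. Immediate early genes were higher in 8 of 13, and in 3 under cyclic loess. Nr4a2, a nuclear receptor of this class, was 5.99-fold higher. Of 20 genes for heme and iron, 4 were higher and 4 lower. Fech, the enzyme that turns protoporphyrin into heme, stood at 6.13 and 6.53 in untreated and treated tail and at 1.14 and 1.57 in untreated and treated back, 5.39-fold lower in the untreated pair. Slc15a1, a peptide transporter that can carry aminolevulinate, was 5.97-fold higher in the untreated back and 1.80-fold lower in the treated back. Of 21 NRF2 and antioxidant genes, 6 were higher and 4 lower. Gsta3, a glutathione transferase, was 5.38-fold lower and catalase, Cat, 4.20-fold higher. The clock genes were divided at 4 each way, with the output factors Hlf and Dbp 11.7-fold and 3.17-fold lower and the repressor Per1 2.94-fold higher.

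Among genes measured on all 4 arrays, those with the largest differences shared by both pairs were named by size, 12 each way. The higher ones were Degs2, Pkib, Mrgprb3, Tspan8, Ch25h, H2-Q8, Tcf23, Chga, Dab1, Tslp, Slc1a1 and Castor2. Degs2, a sphingolipid hydroxylase of barrier lipids, was 367-fold higher, at 0.0718 in untreated tail, 26.4 in untreated back, 1.42 in treated tail and 17.8 in treated back. Pkib, an inhibitor of protein kinase A read by 3 probes, was 331-fold higher, at 0.0150 and 0.0215 on the tail arrays and 4.97 and 1.87 on the back arrays. Ch25h, which makes an oxysterol induced by interferon, was 125-fold higher. H2-Q8, an MHC class I relative whose sequence is shared with neighbouring genes, was 121-fold higher. Chga, a granule protein of neuroendocrine cells, was 98.7-fold higher. Of the 5 Merkel cell genes with a value, 2 were higher (Chga and the factor Isl1, 12.7-fold) and 1 was lower (the keratin Krt8, 7.41-fold). The highest measured difference of the untreated pair was that of Gng8, a G protein subunit, at 654-fold, and its treated pair was 1.39-fold lower.

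The lower genes were Vsig8, Krtap31-1, Fbp1, Padi3, Krtap4-13, Diras1, P2ry2, Krtap15, Myom2, Gprc5d, Tgm6 and Spink6. Vsig8, an immunoglobulin-domain protein, was 176-fold lower, at 3.96 and 16.7 in untreated and treated tail and 0.0225 and 0.0295 in untreated and treated back. Fbp1, an enzyme of gluconeogenesis, was 135-fold lower. Gprc5d, a receptor found in hard keratinizing tissue, was 43.1-fold lower and P2ry2, a nucleotide receptor read by 2 probes, 54.1-fold lower. In each of these 24 genes both back values lay on the same side of both tail values. That separation follows in part from the choice of genes and is a description.

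**Figure D4:**
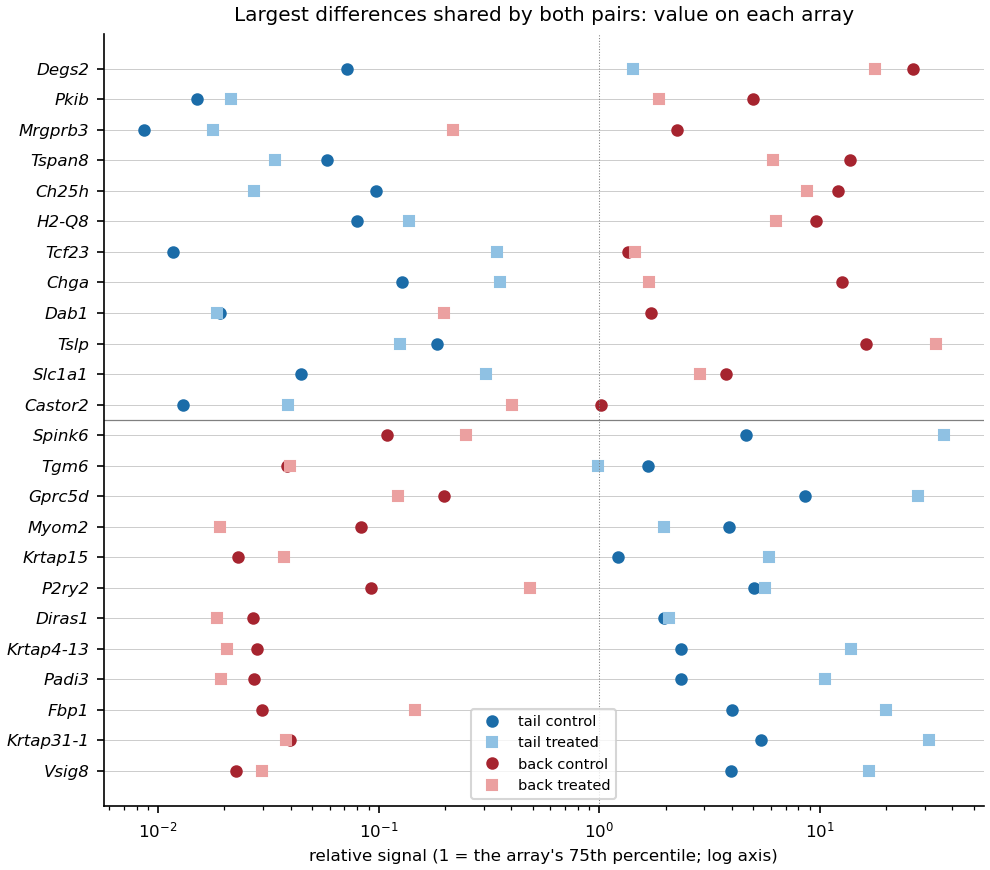
Relative signal on each of the 4 arrays (horizontal axis, log scale, 1 is the 75th percentile of the array) for 24 genes (vertical axis), those measured on all 4 arrays with the largest differences shared by both pairs. Circles are untreated and squares treated arrays, blue is tail and red is back. Back arrays lie to the right for the 12 genes above the line and to the left for the 12 below it.

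The treated pair shares no array with the untreated pair, although it differs from it by treatment and, between sites, by light dose. Over 11281 genes measured on all 4 arrays, the 2 differences had a Pearson correlation of 0.47 and a Spearman correlation of 0.37 across genes, which are not independent replicates. Of 2937 genes higher in the untreated back, 1007 were higher in the treated back too (34.3%, against 16.8% of all 11281 genes), and 298 were lower. Of 1898 genes lower in the untreated back, 797 were lower again (42.0%, against 19.2%), and 80 were higher. The 1007 were 53.2% of the genes higher in the treated pair and the 797 were 36.8% of the genes lower in it. With normexp background correction the Pearson correlation was 0.09. Of 3327 genes then higher in the untreated back, 1745 were lower in the treated back (52.4%, against 39.4% of all 11281 genes). Another 660 were higher again (19.8%, against 11.9%). The cause was not tested.

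**Figure D5:**
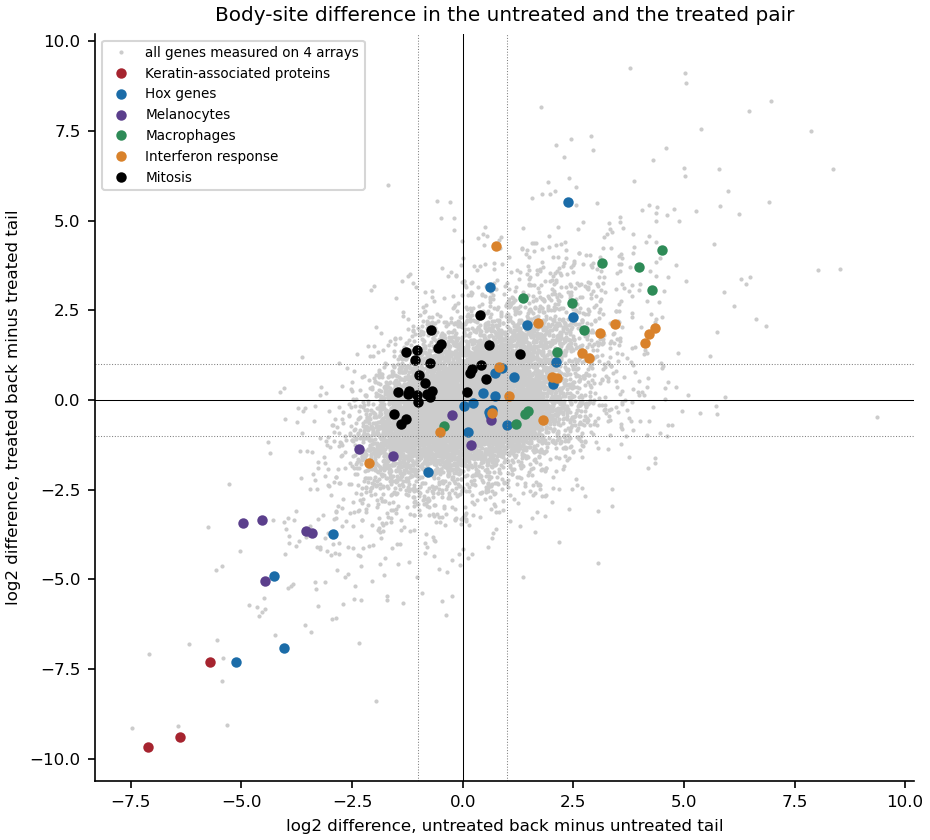
Log2 difference of back minus tail in the untreated pair (horizontal axis) and in the treated pair (vertical axis) for 11281 genes measured on all 4 arrays, with 6 gene lists in colour. Of the keratin-associated proteins only Krtap31-1, Krtap4-13 and Krtap15 were measured on all 4 arrays and are drawn. These, the lower melanocyte genes and the lower Hox genes lie at lower left. Macrophage genes lie mostly at upper right, and mitosis genes mostly to the left of 0 and above it.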

How the data were processed

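Total RNA was labelled with Cy3 from 200 ng per sample, per the labels' protocols. There were 4 one-colour arrays. The deposited spot intensity is background-corrected by Feature Extraction without normalization between arrays, per the file headers, which name version 10.5.1.1 while the submitters' processing notes name 10.7. The raw median intensity and local background are deposited beside it. The authors' processed values were deposited on a log2 scale by steps that no source used here states. Between the untreated arrays they differed by the same amounts as log2 of the processed intensity, within 0.001 for 99.9% of 40718 probes after a constant. The treated arrays were not compared in this way. Scale and direction were thus known for the untreated pair. The centring of the authors' values per probe and the method of scaling stay unstated.

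Here, log2 of the processed intensity was scaled to each array's 75th percentile. Outlier spots were left out and repeat spots averaged. Of 41171 probes, 24375 (59.2%) matched 1 symbol of a RefSeq table (GRCm38.p6). The brightest probe stood for a gene, which gave 16862 genes, of which 5704 had 2 or more probes. Where a called gene had several measured probes, all lay on the same side in 88.9%. Scanner error, which covers spots only, had a median of 0.20 per difference. With 1 array dim or saturated the value is a bound, taken at the higher of its own and the lowest well-above-background signal. Genes dim on both arrays (1762), saturated on both (635) or pointing against the bound (1667) had no value. A call was a 2-fold difference.

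Members and the 45 gene lists (922 different genes on the array, some in several lists) were chosen with earlier results of these data known, so no list is independent support. Named genes were, among genes measured on all 4 arrays, the 12 each way with the largest difference at least 2-fold the same way in both pairs, the 8 each way largest in the untreated pair, all Hox genes, and in each list the members called as a bound and up to 4 others with the largest measured differences. Clone, predicted, olfactory and sex-linked names were skipped in the first 2. Some genes within these rules are left out here. Other names, and the promoters shown, were chosen after their values were seen. The number of arrays limits the precision. Tools were R 4.3.3 with limma 3.58.1 and Python 3.11.15 with numpy 2.4.6, pandas 2.3.3, scipy 1.17.1 and matplotlib 3.10.9.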

Additional observations from a re-analysis of the deposited data

Results flagged for a closer look

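These results lay at least 2-fold one way in the untreated pair and at least 2-fold the other way in the treated pair, each on 1 array per group, and the difference between pairs was not tested. The red blood cell list had a median of 1.12 in the untreated pair and -2.06 in the treated pair. Its globin genes Hba-a1 and Hbb-bt had log2 differences of 1.63 and 1.12 in the untreated pair and -1.63 and -2.06 in the treated pair. Higher in the untreated back and lower in the treated back were also Casp14, a protease of the cornified layer (3.04 and -1.30), Il1f6 (2.41 and -3.04), Padi1 (1.43 and -1.39), the positional factors Pitx1 (4.35 and -1.77) and Msx1 (2.31 and -1.34), the mast cell tryptase Tpsb2 (2.67 and -1.35), the plasma cell gene Mzb1 (1.06 and -2.84), the adipocyte hormone Retn (1.29 and -1.01) and the antioxidant enzyme Srxn1 (2.12 and -1.11). Lower in the untreated back and higher in the treated back were E2f1 (-1.76 and 1.03), the Wnt ligand Wnt10a (-1.20 and 1.20), known from epidermis and follicles, and the secreted Wnt inhibitor Wif1 (-1.80 and 1.39). The values of Casp14 and Wnt10a in the untreated pair, and of Mzb1, Retn and Tpsb2 in the treated pair, are bounds. Under cyclic loess the untreated values of Hbb-bt (0.92), Mzb1 (0.82) and Retn (0.74) and the red blood cell median (0.92) were under 2-fold, and under spike-in scaling that median was 0.067.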

How the results depend on the processing

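Within the untreated pair no paired analysis was possible, because each group has 1 array and the labels carry no replicate numbers. No array could be left out. Treatment was not used as a block, since light dose differed between the treated sites. Of 3507 genes higher and 2206 lower in the untreated back (61.4% of calls higher), spike-in scaling, which lowered every gene by 1.06 and rests on 6 probes, gave 1168 and 5942 (16.4%), no filter gave 5926 higher, a minimum signal of 200 gave 2104 and 1436, and a 3-fold limit gave 1925 and 971. The share was 46.9% under quantile normalization and 47.7% under cyclic loess, whose medians over all genes lay 0.30 and 0.31 lower. Under normexp that median lay 0.15 higher. With the minimum signal, 123 of the 245 called named genes, 6 of the 19 called Hox genes and 975 of the 1804 genes called alike in both pairs were left, because fewer genes were tested. Of the 245, 244 kept their direction in each alternative that gave a value, Rpl14 alone turning (-0.014 under spike-in scaling), and 196 stayed past 2-fold in each, with 207 past it under spike-in scaling. The medians of hair-shaft, melanocyte, Langerhans, T cell, macrophage, neutrophil, cytokine, interferon, mitosis and DNA replication lists kept their sign in each alternative run. Most hair-shaft values were bounds kept only when lower, so their medians had little room to turn wherever bounds were used. The hair-type keratins had no measured member. Those of Hox genes, positional factors, stem cells, pericytes, muscle, adipocytes, cartilage, B cells, immediate early genes (-0.0043), glycolysis, the clock and metalloproteinases, among others, turned under spike-in scaling. Signal over background limits the dim Hox genes, and saturation limits the epidermal, ribosomal and hair-shaft genes.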

Other observations

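Genes of the extracellular proteases and of oxygen-sensing metabolism were among those not yet described. Of 17 metalloproteinases and inhibitors with a value, 8 were higher in the untreated back and 3 lower. Mmp9, a gelatinase that myeloid cells and keratinocytes make, stood at 0.0105 and 0.0212 in untreated and treated tail and at 0.258 and 0.760 in untreated and treated back, and was 24.7-fold higher in the untreated pair. Adamts1 was 5.72-fold higher and Adamts4, a protease of cartilage proteoglycans, 6.45-fold higher, while in the treated pair Adamts4 was 1.02-fold lower. Of 11 glycolysis and hypoxia genes, 3 were higher and 1 lower, a share of higher genes near the 27.4% of all genes. Under cyclic loess 1 was higher and 1 lower, at a median of -0.0011. Pfkfb3, which sets the pace of glycolysis, was 3.16-fold higher, at 2.90 in tail and 9.17 in back, and the vascular growth factor Vegfa 2.75-fold higher. Vegfa was under 2-fold with cyclic loess, and both were under 2-fold with spike-in scaling. Pdk1, which holds pyruvate back from the mitochondrion, was 2.75-fold lower.

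Smooth muscle and pericyte genes differed among themselves. Lmod1, an actin organizer of smooth muscle, stood at 0.364 and 4.14 in untreated and treated tail and at 0.0339 and 0.0471 in untreated and treated back, 10.8-fold lower in the untreated pair. The integrin Itga8 was 5.96-fold lower, and Myh11, the smooth muscle myosin, was 5.96-fold higher in the untreated back on signals of 0.00823 and 0.0490. Of the 5 sex-linked genes, the 4 Y-linked ones were well above background on all 4 arrays and Xist on none. In the untreated pair 3 of the 4 were higher in the back, with a median of 1.13 that was 0.074 under spike-in scaling. The treated pair had a median of 0.72 for them, with none past 2-fold. Among reference genes, Actb was 3.73-fold higher in the untreated back and 1.08-fold lower in the treated back.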
